A study of Mus musculus with 110 samples.

Results

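The rearrangements described here join the immunoglobulin heavy chain (Igh) JH4 segment of the mouse to the VH segments that lie 1200 to 2000 kb beyond the start of the VH region, leaving out the 5 positions 116090723, 116115569, 116193011, 116212002 and 116240676. They were chosen as all junction reads on chromosome 12 between positions 116029805 and 116829804 that lie more than 100 bp from those 5 positions. This gave 28402 of the 3602400 junction reads of 98 libraries, and 28402 of the 312039 reads that joined anywhere in the VH region (114829805 to 117639092). The 5 positions left out held 17502 of the 45904 reads of the whole interval. Positions are those of the deposited files, which use a hybrid of mm9 with the Igh sequence of the 129 strain.

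The study mapped V(D)J recombination by linear-amplification translocation sequencing from a JH4 bait, so that each read gives the position to which JH4 was joined. The lines were v-Abl transformed pro-B cells, which are immortal progenitors that rearrange Igh when STI-571, an Abl kinase inhibitor, arrests them. All lines carried Emu-Bcl2, which keeps arrested cells alive, and were RAG2 deficient, so they received RAG2 by nucleofection and then 3 µM STI-571 for 4 days. In the groups with indole-3-acetic acid (IAA), which triggers breakdown of a degron-tagged protein in cells that make the plant protein OsTIR1, 500 µM IAA was given from 6 h before the inhibitor and kept on with it.

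The parental line had no further change. The other lines carried an Ostir1 knock in, CTCF-mAID-GFP tagging, CTCFdegron, Rad21degron, or Rad21degron with IGCR1deleted. IGCR1 holds CTCF sites and separates the D segments from the proximal VH segments, and Rad21 is a cohesin subunit. The parental, Ostir1 and CTCF-tag lines had 4 replicates with and 4 without IAA, CTCFdegron had 6 and 6, Rad21degron 3 and 3, and the IGCR1-deleted line 4 and 4. Bone marrow pro-B cells of wild-type 129SV mice, sorted by surface markers, gave 6 replicates and rearranged with their own RAG2. For bone marrow replicates 4 to 6 one label field also names STI-571 treatment, as for the lines, while their other labels name the sort alone. The labels give no age of these mice and do not say whether animals were pooled, whether a line is 1 clone, or whether replicates were separate cultures. The p-values below therefore measure the spread between these samples, which may be technical.

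In V(D)J recombination, the RAG1 and RAG2 proteins cut DNA at recombination signals, each made of a heptamer, a spacer and a nonamer, and the cut segments are then joined. At Igh a D segment first joins a JH segment, and a VH segment then joins the DJH product, which completes the variable exon. RAG bound at the JH end is known to scan chromatin that cohesin draws past it by loop extrusion, and CTCF bound to its sites impedes this movement. In bone marrow pro-B cells the locus also contracts, which brings distal VH segments close to the D and JH segments, while v-Abl lines lack most of that contraction.

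The interval held 52 junction peaks, each taken as 1 segment. Of the 28402 reads, 28069 (98.8%) lay within 100 bp of such a peak in the orientation that joins a VH segment by deletion, and 190 (0.669%) had the opposite orientation. In mm9, 51 of the 52 matched the Igh locus and 30 lay in an annotated V gene, 26 of them of the large Ighv1 family, 2 of Ighv10, 1 of Ighv6 and 1 of Ighv8. The other 22 had no gene symbol in that annotation. The 26 Ighv1 segments held 19204 reads, the 2 Ighv10 segments 2477, the Ighv6 segment 1812, the Ighv8 segment 35 and the 22 unnamed segments 4541. Coverage was uneven, with at least 1000 reads at 11 segments and under 100 reads at 18.

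A recombination signal was searched on the coding strand beyond each segment in mm9, as a heptamer that begins CAC, a spacer of 22 to 24 bases and a nonamer, with at least 11 of 16 letters equal to CACAGTG and ACAAAAACC. It was found at 45 of the 52 segments, and 37 of these 45 (82.2%) had the heptamer CACAGTG. Outside the interval it was found at 104 of 114 VH peaks, of which 78 (75.0%) had CACAGTG. In the interval 37 signals (82.2%) had a spacer of 22 bases, against 42 (40.4%) outside. The signals below, read from mm9, belong to the segments on which the results turn, and capitals mark the heptamer and the nonamer.

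Ighv1-5, chr12:115751503-115751540, minus strand: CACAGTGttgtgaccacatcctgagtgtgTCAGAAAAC

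Ighv1-2, chr12:115707248-115707285, minus strand: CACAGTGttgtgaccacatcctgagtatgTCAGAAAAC

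Ighv1-39, chr12:116152772-116152809, minus strand: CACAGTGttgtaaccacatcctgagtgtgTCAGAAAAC

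Ighv1-47, chr12:116229281-116229318, minus strand: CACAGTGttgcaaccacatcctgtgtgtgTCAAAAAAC

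Ighv1-54, chr12:116431848-116431885, minus strand: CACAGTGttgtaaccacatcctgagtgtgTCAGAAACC

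Ighv1-14, chr12:115884745-115884782, minus strand: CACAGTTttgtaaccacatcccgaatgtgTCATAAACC

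Ighv1-37, chr12:116134411-116134448, minus strand: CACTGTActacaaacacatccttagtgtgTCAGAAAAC

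Ighv10-1, chr12:115717177-115717215, minus strand: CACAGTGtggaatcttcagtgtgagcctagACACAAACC

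Ighv6-3, chr12:115629884-115629922, minus strand: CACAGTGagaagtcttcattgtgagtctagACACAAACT

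The first 5 signals share the heptamer and a 22-base spacer. Ighv1-14 and Ighv1-37 have other heptamers, and Ighv10-1 and Ighv6-3 have a 23-base spacer and a nonamer that begins ACAC. Most signals lay at 1 common distance between deposited and mm9 positions, but those of the 6 segments up to 116081018, Ighv6-3 among them, did not. The name and signal of Ighv6-3 come from its best match in mm9 (97.4% identity over 309 bases), which lies out of order with its neighbours, so they are less certain than the others. Ighv10-3 has the same signal as Ighv10-1, at chr12:115761613-115761651.

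The unnamed segment at position 116433049 had the second highest share of the interval after CTCF depletion, and its sequence is shown for that reason, beside that of Ighv1-5, which had the highest. The first line gives the coding end of the segment as read in the libraries, with capitals where the reads differ from mm9. The second gives the 39 bases that follow in mm9, with the 7 bases at the heptamer's place in capitals. These are CAAAGTG, which does not begin CAC, so the search did not count it.

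Segment 116433049, coding end, chr12:116042827-116042886, minus strand: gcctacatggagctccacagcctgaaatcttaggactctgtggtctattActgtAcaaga

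Segment 116433049, flank, chr12:116042788-116042826, minus strand: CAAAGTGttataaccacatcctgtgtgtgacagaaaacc

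Ighv1-5, coding end, chr12:115751541-115751600, minus strand: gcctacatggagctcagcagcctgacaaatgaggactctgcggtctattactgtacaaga

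Only 50.0% of the reads at 116433049 lay within 5 bp of its peak, against 89.2% at Ighv1-5. The coding ends of these 2 segments come from the reads and the flanks from mm9, so the flank of the sequenced strain may differ.

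The number of junction reads per replicate ran from 14866 to 231023 in untreated parental cells, from 26375 to 58885 in untreated and 21416 to 35133 in IAA-treated CTCFdegron cells, and from 30090 to 89909 in bone marrow. It was lowest in IAA-treated Rad21degron (1263 to 2492) and IGCR1-deleted Rad21degron cells (1608 to 2668). Reads carry no molecular identifiers and are not independent molecules, so limits drawn from read counts cover counting error only. In bone marrow replicates 1 to 3, between 63.7% and 70.7% of the interval's reads carried the files' mark for duplicates, and no other library carried that mark. Replicate 1 of CTCFdegron and of the CTCF-tag line had the lowest share of its group, both with and without IAA. Ostir1 replicates 3 and 4 were near 0 in both treatments, while parental replicates 3 and 4 of the same sequencing run were not.

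In untreated parental cells the interval took 0.0510, 0.0532, 0.0460 and 0.0458% of junction reads (mean 0.0490% ± 0.00370, SD, n = 4). With IAA the parental line gave 0.0707, 0.0527, 0.0519 and 0.0608% (0.0591% ± 0.00875, n = 4). The 2 ranges overlap and the difference of 0.0101 percentage points had p = 0.0857 (two-sided exact permutation test; adjusted p = 0.133 by Benjamini-Hochberg over 17 comparisons of shares). Untreated and treated parental replicates 1 and 2 came from different sequencing runs, and within the run that holds replicates 3 and 4 of both the difference was 0.0105 points (n = 2 each). The Ostir1 line gave 0.0425, 0.0509, 0.0117 and 0.00300% untreated and 0.0577, 0.0456, 0.00577 and 0.00168% with IAA. Its groups overlap as well (difference 0.000656 points, exact permutation p = 0.971), and replicates 3 and 4, from another run than replicates 1 and 2, were low in both.

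The line with the CTCF tag alone stood higher than the parental line in 3 of its 4 replicates. Its interval shares were 0.0455, 0.241, 0.324 and 0.231% untreated and 0.0740, 0.244, 0.323 and 0.273% with IAA. IAA made no difference larger than the spread (0.0179 points, exact permutation p = 0.714). Untreated, the line was 0.162 points above the parental line, with exact permutation p = 0.143 and groups that overlap through replicate 1. Both parental replicates of the same sequencing run averaged 0.0521%, against 0.211% for the 4 tagged ones, a difference of 0.158 points. Without replicate 1 the difference from all parental replicates was 0.217 points (exact permutation p = 0.0286), a comparison added after the shares were seen.

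CTCFdegron cells joined JH4 to the interval more often after IAA. Without IAA the lowest of 6 replicates had 0.133%, the median was 0.210% and the highest 0.440% (mean 0.248% ± 0.119, SD, n = 6; 696 reads). With IAA these were 0.833, 1.87 and 2.21% (1.75% ± 0.503, n = 6; 3264 reads). Every IAA replicate lay above every untreated one. The difference was 1.50 percentage points or 7.04-fold (exact permutation p = 0.00217, the smallest this design allows; adjusted p = 0.0116). All 12 replicates came from 1 sequencing run, and leaving replicate 1 out of both groups gave 1.66 points (p = 0.00794, exact permutation test). The rise with IAA was larger than the change with IAA in the parental line by 1.49 points, in the Ostir1 line by 1.50 points and in the CTCF-tag line by 1.48 points (p = 0.00476 each by exact permutation of lines, the lowest value attainable). However the replicates are paired, the difference is at least 0.3935 points in CTCFdegron cells and at most 0.278 points in the CTCF-tag, 0.0547 in the Ostir1 and 0.0250 points in the parental line.

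The size of this rise depends on how repeated reads are counted. When reads with the same junction and the same bait end were counted once per library, the mean shares were 1.64% ± 0.897 untreated and 4.99% ± 1.42 with IAA, a 3.04-fold difference (exact permutation p = 0.00433). That count kept 14.1% of all reads of the untreated and 28.0% of the treated group, but 90.9% and 78.6% of their interval reads. With the 5 omitted positions included, the shares were 0.501% and 5.17%, a 10.3-fold difference.

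**Figure D1:**
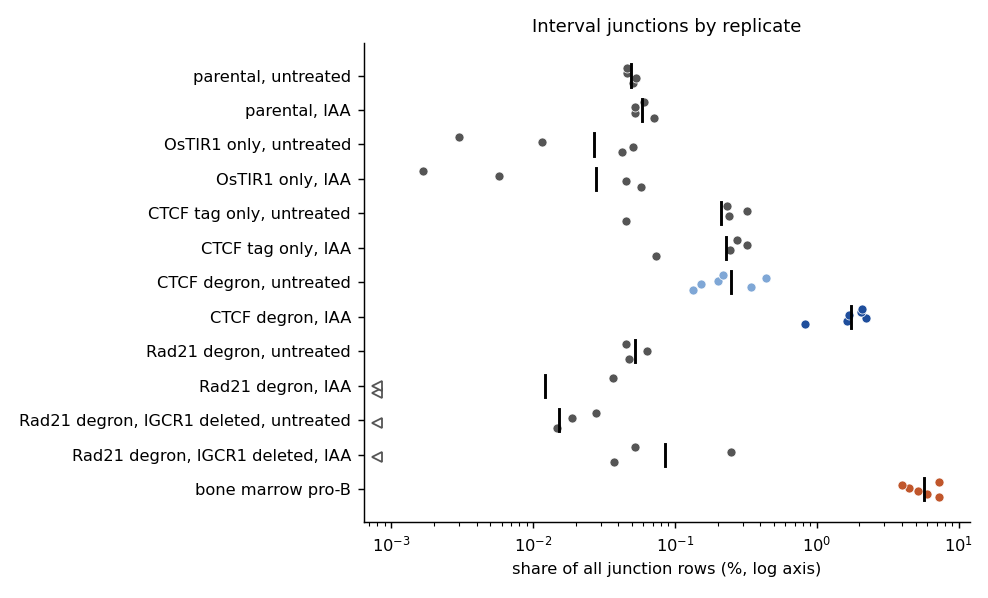
Share of all junction reads in the interval (percent, log axis) for each replicate of the 13 groups, with black bars for group means; open triangles at the left edge are replicates with 0 reads. Bone marrow replicates lie between 4.00 and 7.32%, CTCFdegron replicates with IAA between 0.833 and 2.21%, and untreated parental replicates between 0.0458 and 0.0532%.

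As a share of VH junctions alone, the interval did not gain with IAA. It held 6.57% ± 2.76 (SD, n = 6) of the VH reads in untreated and 6.43% ± 1.83 in IAA-treated CTCFdegron cells, with a lowest, median and highest treated value of 2.73, 7.02 and 7.45%. The ranges overlap and the difference of -0.142 points had exact permutation p = 0.920. All VH junctions together made up 4.05% ± 1.36 of reads untreated and 27.5% ± 2.78 with IAA. The direction of the small difference turned to 2.06 points with repeated junctions counted once, to 6.10 points with the 5 omitted positions included and to 0.597 points without treated replicate 1, each without passing the test. Without untreated replicate 1, the lowest of its group at 2.04% of VH reads, it was -1.05 points, and without replicate 1 of both groups -0.310 points.

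Untreated CTCFdegron cells already differed from the parental line. Their interval share was 0.199 points or 5.07-fold higher, with no overlap (exact permutation p = 0.0143, adjusted p = 0.0304). Of their VH reads 6.57% fell in the interval, against 1.10% ± 0.295 (n = 4) in untreated parental cells (exact permutation p = 0.0190, adjusted p = 0.0360). IAA-treated CTCFdegron cells stood 35.7-fold above the untreated parental line (exact permutation p = 0.00476, adjusted p = 0.0116), or 10.9-fold with repeated junctions counted once. No parental replicate shares a sequencing run with the CTCFdegron replicates, so for these comparisons run and line cannot be told apart.

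By segment, the reads at each peak were compared in limma, and 7 of the 52 segments passed the minimum of 10 reads on average per replicate in the comparison of CTCFdegron with and without IAA. All 7 were higher with IAA, where 80.3% of all 76 D and VH segments tested were called higher and 7.89% lower, and 95.2% of the 42 VH segments outside the interval were called higher. The median log2 change was 3.53 over the 7 segments and 2.73 over all 76. Because a segment could pass the minimum through the treated group alone, nothing is read from the count or the medians. Segments named below for a large change without overlap were chosen by it, so their p-values are no separate support. With another scaling, median of ratios, the median of all segments was 0.60 and 5 of the 7 were called. Against untreated parental cells the same 10-read minimum left 7 segments, all called higher, where 78.2% of all 78 segments tested were called higher and 12.8% lower.

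Ighv1-5, an Ighv1 family gene 1312.0 kb into the VH region, took the most junctions after CTCF depletion. Its share of all reads was 0.0114, 0.0227 and 0.0310% (lowest, median and highest of 6) untreated and 0.121, 0.278 and 0.475% with IAA. The groups do not overlap, with 61 and 541 reads (13.1-fold, log2 change 3.53 ± 0.38 SE, limma adjusted p = 2.09e-12). Ighv1-2, at 1267.7 kb, rose from a mean of 0.0150 to 0.188% (12.5-fold, log2 change 3.61 ± 0.49, limma adjusted p = 1.35e-09). Its lowest treated replicate, replicate 1 at 0.0374%, was still above the highest untreated one at 0.0292%.

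The unnamed segment 116433049, at 1603.2 kb, changed most of the 7. The 6 untreated replicates held between 0.00729 and 0.0146% with a median of 0.00997%, and the treated ones between 0.121 and 0.285% with a median of 0.263%. No treated value came near an untreated one, with 30 against 422 reads (21.5-fold, log2 change 4.24 ± 0.43, limma adjusted p = 3.23e-13). This is the segment whose flank lacks a heptamer that begins CAC. A second unnamed segment without a signal found by the search, at 116652452 (1822.6 kb), went from a mean of 0.0148 to 0.107% with 42 and 201 reads (7.19-fold, log2 change 2.79 ± 0.46, limma adjusted p = 1.55e-07). Median-of-ratios scaling took that segment's change to 0.64 (limma adjusted p = 0.147).

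Ighv1-47, at 1789.7 kb, changed least of the 7. It was already the most used segment of the interval without depletion, with 0.0265, 0.0579 and 0.0858% of reads (lowest, median and highest) in untreated CTCFdegron cells. With IAA it held 0.0981, 0.165 and 0.184%, so that the groups just miss each other (2.78-fold, log2 change 1.49 ± 0.32, limma adjusted p = 3.33e-05). Counting repeated junctions once left a change of 0.33 (limma adjusted p = 0.281), and median-of-ratios scaling turned it to -0.61 (limma adjusted p = 0.0760). The remaining segments past the minimum were Ighv1-12, with 26 and 180 reads (9.48-fold, limma adjusted p = 1.21e-08), and Ighv1-39, with 17 and 141 reads (11.4-fold, limma adjusted p = 1.01e-09).

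Ighv1-47 was also the only segment of the interval that reached the minimum in untreated CTCFdegron against untreated parental cells. It held 0, 0.00673, 0.00909 and 0.0102% of reads in the 4 parental replicates. Every CTCFdegron replicate was above these (8.48-fold, log2 change 2.75 ± 0.45, limma adjusted p = 2.50e-08). In that comparison 37.2% of the 43 segments tested were called higher and 16.3% lower. Its share in the CTCF-tag line was 0.00930, 0.0535, 0.0715 and 0.0495% untreated, so replicate 1 was near the parental values and the others near those of untreated CTCFdegron.

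The leading segment was not the same in all conditions. Over all 52 segments, however, the order in IAA-treated CTCFdegron cells and bone marrow was correlated (Spearman 0.773). As a mean over replicates, Ighv1-47 took the highest part of the reads at segments in the untreated CTCF-tag (22.3% ± 0.343, SD, n = 4) and CTCFdegron groups (23.8% ± 4.79, n = 6). In untreated parental cells Ighv1-54 (15.7% ± 12.1, n = 4) and Ighv1-47 (14.0% ± 10.4) overlapped, and Ighv1-47 led when reads were pooled (20.5%). Parental replicates 1 and 2 held only 9 and 8 interval reads, and the highest Ighv1-54 value, 33.3% in replicate 1, rests on 3 reads. In IAA-treated CTCFdegron cells Ighv1-5 led with 16.6% ± 3.79 (n = 6). In bone marrow Ighv1-5 (9.49% ± 0.877, n = 6) and Ighv1-2 (9.15% ± 1.004) did not differ beyond their spread. With reads pooled over replicates, the 6 most used segments held 56.2% of the reads at segments in untreated CTCFdegron cells, 62.0% with IAA and 45.2% in bone marrow. Reads were found at 39, 49 and 51 of the 52 segments in these 3 groups, whose depths differ.

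**Figure D2:**
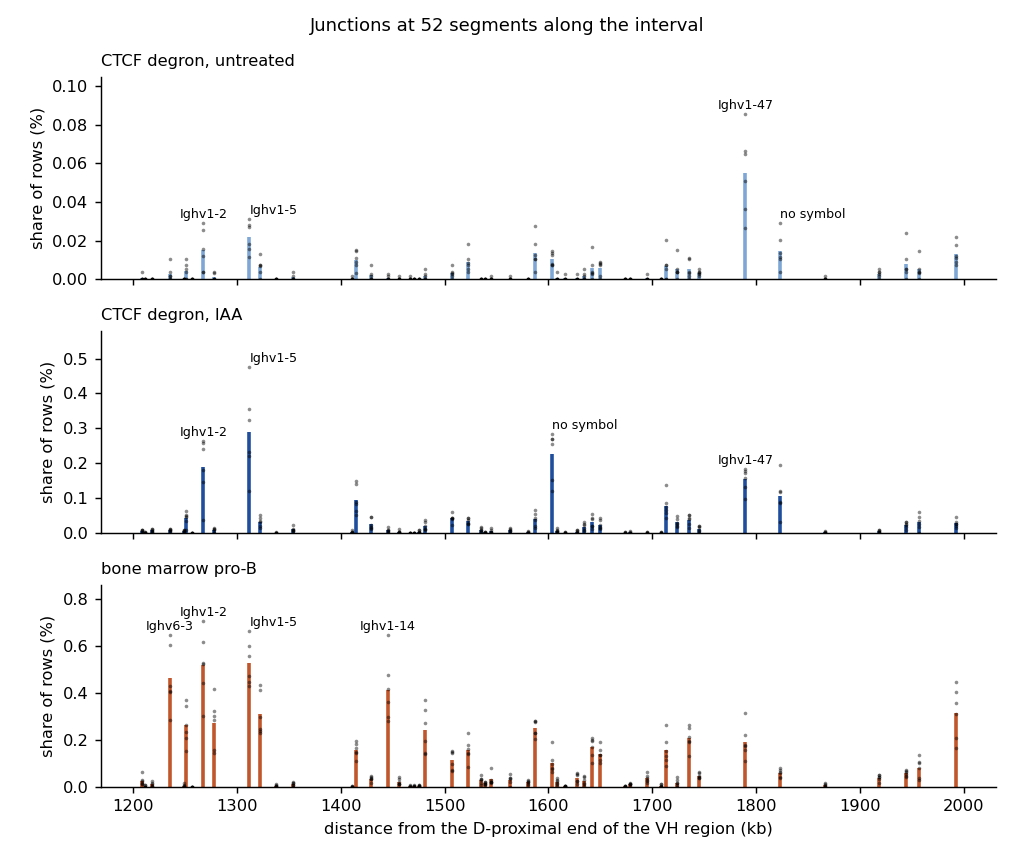
Share of all junction reads (percent) at each of the 52 segments against distance from the start of the VH region (kb), in CTCFdegron cells without and with IAA and in bone marrow; stems are means and dots replicates. Bone marrow has its highest stems at Ighv1-5 (0.529%) and Ighv1-2 (0.520%), and the treated cells at Ighv1-5 (0.288%) and the segment at 1603.2 kb (0.225%).

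Bone marrow pro-B cells used the interval most of all groups. Their shares were 4.00% at the lowest, 5.59% at the median and 7.32% at the highest (mean 5.71% ± 1.41, SD, n = 6; 21058 reads). All 6 were above every IAA-treated CTCFdegron replicate, by 3.97 points or 3.27-fold (exact permutation p = 0.00217, adjusted p = 0.0116), and above every untreated parental replicate, by 117-fold (exact permutation p = 0.00476). Without the reads marked as duplicates the bone marrow mean was 9.23% and the differences 5.28-fold and 188-fold. Only bone marrow replicates 1 to 3 lost reads in this way, and their values were set beside others counted in full (bone marrow range 4.00 to 14.7%). With repeated junctions counted once it was 12.4%, and the differences were 2.48-fold and 27.0-fold. With the 5 omitted positions included, the differences were 1.548-fold and 122-fold. Bone marrow replicates then lay between 5.54 and 10.31% and IAA-treated CTCFdegron replicates between 2.349 and 6.505%, so their ranges overlapped. The separation of bone marrow from the treated cells thus depends on leaving out these positions. Bone marrow and line replicates shared no sequencing run and differ in many respects, so these comparisons describe the 2 sources of cells.

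The larger use in bone marrow held within VH junctions too. The interval took 18.4% ± 1.34 of VH reads (17.3, 17.8 and 20.3% at the lowest, median and highest), which is 11.97 points or 2.86-fold above IAA-treated CTCFdegron cells, with no overlap (exact permutation p = 0.00217). All VH junctions together were 30.8% ± 5.99 of reads in bone marrow and 27.5% ± 2.78 in the treated cells. With the 5 omitted positions included the difference in the share of VH reads was 6.70 points.

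With the 5 omitted positions left out, the excess in bone marrow was not even along the interval. These positions all lie between 1200 and 1500 kb, so the values there lack their reads. Including them lowered the excess over IAA-treated CTCFdegron cells to 1.548-fold for the whole interval. Its course along the interval was not tested with them. In the first 100 kb, bone marrow held 1.58% of all reads and IAA-treated CTCFdegron cells 0.267%. At 1600 to 1700 kb the values were 0.548 and 0.319%. At 1800 to 1900 kb the means were 0.0668% in bone marrow (0.0404 to 0.0955%) and 0.114% in the treated cells (0.0327 to 0.208%), so the ranges overlapped. Most reads there lay at segment 116652452 (219 of 256 and 201 of 216), whose own call was lost under other counts, as given below. In untreated CTCFdegron cells the 100 kb that hold Ighv1-47 had 30.8% of the interval's reads, against 17.8% with IAA and 10.8% in bone marrow.

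Of the 30 segments of the interval tested between bone marrow and IAA-treated CTCFdegron cells, 25 were called higher in bone marrow and 2 lower, where 67.8% of all segments tested were called higher and 16.1% lower. The median log2 difference was 2.17 over the 30 and 1.57 over all segments. Against untreated parental cells, all 31 segments tested were called higher in bone marrow, where 88.6% of all segments tested were called higher and 6.33% lower. As many of these segments passed the minimum through bone marrow alone, nothing is read from these counts and medians. Median-of-ratios scaling left 16 higher and 3 lower calls in the comparison with treated CTCFdegron cells.

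Among the 30 segments tested, the largest differences in favour of bone marrow lay at 4 that the treated line hardly used. They passed the minimum through bone marrow and were named for large differences without overlap. Their p-values and lack of overlap are therefore no separate support. Ighv6-3, the single Ighv6 gene found here, held 0.286, 0.419 and 0.649% (lowest, median and highest) in bone marrow and 0.00297, 0.00813 and 0.0114% in the treated cells. These do not overlap, with 1725 and 14 reads (60.4-fold, log2 difference 5.72 ± 0.45, limma adjusted p = 2.80e-14). Ighv1-14 had a mean of 0.414% against 0.00713%, with 1499 and 13 reads (58.1-fold, 5.82 ± 0.47, limma adjusted p = 5.67e-14).

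Ighv10-1 followed with a mean of 0.271% against 0.00745%, from 1062 and 15 reads (36.4-fold, log2 difference 5.29 ± 0.51, limma adjusted p = 7.97e-12). Ighv1-37 held 0.0357% in bone marrow from 142 reads, and 2 reads in all in the treated cells (log2 difference 3.91 ± 0.49, limma adjusted p = 4.40e-09). These 4 carry the signals printed above that differ from the first 5 in heptamer or in spacer and nonamer, a likeness seen after the values were known and not tested. Ighv10-3, with the same signal as Ighv10-1, was 9.60-fold higher in bone marrow (0.310 against 0.0323%). The unnamed segment 116081018, whose signal also has CACAGTG, a 23-base spacer and the nonamer ACACAAACC, was 6.27-fold higher. Ighv1-20, with the heptamer, spacer length and nonamer of Ighv1-37, was 4.57-fold higher. Both differences were smaller than those of Ighv1-54 and Ighv1-18 below, so signals of these kinds were not all among the largest differences.

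Over the 26 Ighv1 segments the mean shares summed to 3.83% of reads in bone marrow and 1.15% in treated CTCFdegron cells, whereas the Ighv10 pair gave 0.581 and 0.0397%. Within Ighv1 the differences ranged widely. Ighv1-54, the segment farthest from the D segments at 1992.3 kb, held 0.166, 0.334 and 0.447% (lowest, median and highest) in bone marrow and 0.0140, 0.0262 and 0.0463% in treated cells, without overlap (11.6-fold, log2 difference 3.52 ± 0.40, limma adjusted p = 4.19e-10). Ighv1-18 and Ighv1-26 were 11.99-fold and 6.39-fold higher, and Ighv1-2 2.77-fold (1.68 ± 0.31, limma adjusted p = 5.98e-06).

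At several segments the replicates of bone marrow and of IAA-treated CTCFdegron cells overlapped. Ighv1-47 held 0.110, 0.176 and 0.313% in bone marrow, a range that spans that of the treated cells (log2 difference 0.29 ± 0.28, limma adjusted p = 0.339). Its difference turned to -0.86 under median-of-ratios scaling (limma adjusted p = 7.55e-04). Ighv1-5 was 0.99 ± 0.26 higher in bone marrow on the log2 scale (limma adjusted p = 6.60e-04), with overlapping replicates. Under median-of-ratios scaling that difference was -0.17, and those of Ighv1-12 and Ighv1-39 turned to -0.41 and -0.12, none of these 3 past the test.

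Only 2 of the 30 segments were called higher in the treated line than in bone marrow, both unnamed. At 116433049 bone marrow held 0.0631, 0.0887 and 0.190% (lowest, median and highest), and 4 of the 6 treated replicates were above its highest value. The treated mean was 2.18-fold higher (log2 difference -1.15 ± 0.30 for bone marrow against treated cells, limma adjusted p = 7.91e-04). With marked duplicates left out this was -0.48 (limma adjusted p = 0.302). At 116652452 the difference was -0.75 ± 0.34 (limma adjusted p = 0.0401). That call was lost with repeated junctions counted once (-0.67, limma adjusted p = 0.0882) and with marked duplicates left out (-0.40, limma adjusted p = 0.447). The segment nearest to the D segments, the unnamed 116038148 at 1208.3 kb, held few reads in either source, with means of 0.0260% in bone marrow and 0.00489% in treated cells.

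**Figure D3:**
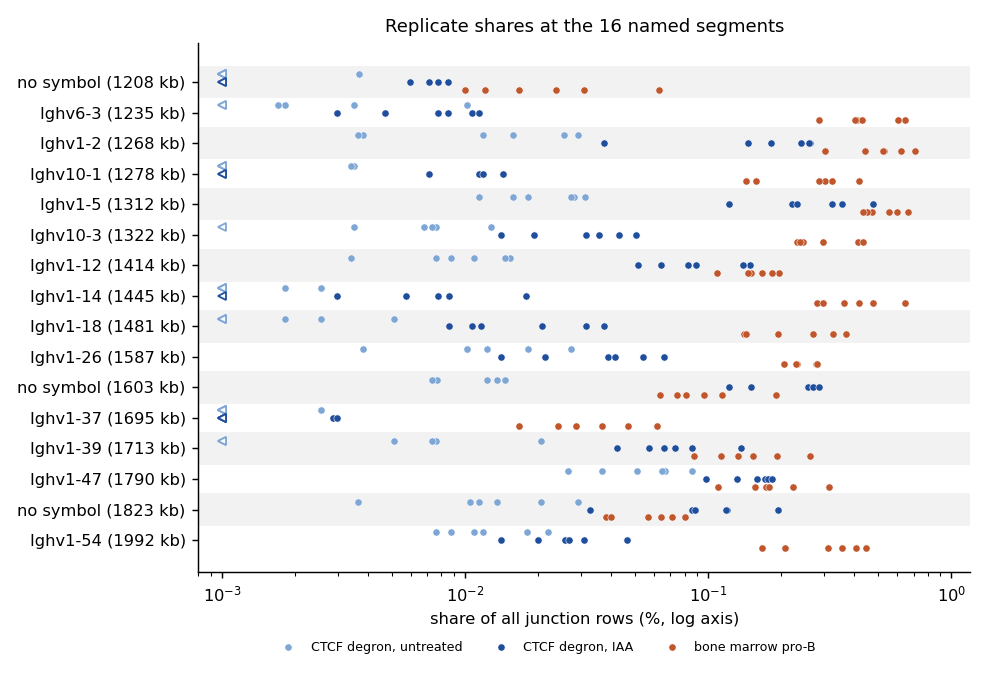
Share of all junction reads (percent, log axis) at the named segments, by replicate, in untreated CTCFdegron, IAA-treated CTCFdegron and bone marrow groups; open triangles at the left edge are replicates with 0 reads. Ighv6-3, Ighv10-1 and Ighv1-14 are separated between bone marrow and treated CTCFdegron cells by 36.4-fold or more, while at Ighv1-47 the groups overlap.

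Untreated Rad21degron cells had 0.0473, 0.0636 and 0.0454% of their reads in the interval (57 reads in 3 replicates). With IAA there was 1 read in all, in replicate 3 (0, 0 and 0.0366%). Since 3 reads correspond to between 0.120 and 0.238% of a treated replicate, the depth does not allow a statement on the change (-0.0399 points, exact permutation p = 0.100, the smallest that 3 against 3 can give).

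The IGCR1-deleted Rad21degron line used VH segments heavily, at 50.7% ± 2.33 (n = 4) of untreated reads, but hardly any in the interval. Its untreated replicates held 0.0148, 0, 0.0188 and 0.0277% there, 7 reads in all, where 3 reads correspond to 0.0196 to 0.0563%. Of its VH reads 0.0308% ± 0.0242 lay in the interval, against 6.43% ± 1.83 in IAA-treated CTCFdegron cells (difference -6.39 points, no overlap, exact permutation p = 0.00476). These groups shared no sequencing run and differ in line, treatment and library letters, which cannot be told apart here. In untreated IGCR1-deleted cells the share of all reads was below that of untreated Rad21degron cells (difference -0.0368 points, exact permutation p = 0.0286, adjusted p = 0.0486). With any 1 replicate left out the difference was between -0.0409 and -0.0310 points, and such a design can no longer pass 0.05. The IGCR1-deleted line has b libraries alone and shares no sequencing run with Rad21degron cells, so run and line cannot be told apart, and with b libraries alone on both sides the difference was -0.0472 points (exact permutation p = 0.0286). With IAA the line gave 6 reads (0.0375, 0, 0.249 and 0.0522%), too few for a comparison.

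The junctions themselves were read for the number of bases between bait and V end, for a frame without a stop from the conserved cysteine codon near the V end to the tryptophan codon of JH4, called open here, and for a match of at least 8 bases to a D segment. The V before its cysteine codon was not read for this, and the coding end of 116433049 holds 1 stop codon there (TAG). The coding end of Ighv1-2 holds 1 stop codon (TGA) after its cysteine codon, at the very end. That codon lies within the stretch read where a junction kept it. The frame could be read in 91.8 to 94.7% of the interval's junctions per replicate in bone marrow and in 72.9 to 80.5% in IAA-treated CTCFdegron cells. Open shares are of the junctions read for the frame, so unequal parts of the groups are compared. In bone marrow 49.9% ± 4.19 of these were open, against 25.8% ± 2.97 in IAA-treated CTCFdegron cells (n = 6 each, 44.1 to 55.9% and 22.1 to 29.0%). The ranges are far apart (24.1 points, exact permutation p = 0.00217, adjusted p = 0.00650 over 6 tests). Untreated CTCFdegron cells gave 26.9% ± 7.12, and their difference from treated cells was within the spread (-1.05 points, exact permutation p = 0.799). The bases between bait and V averaged 17.3 in bone marrow and 15.5 in treated cells, without overlap (exact permutation p = 0.00217, adjusted p = 0.00650), and the share with a D match was 62.0 and 62.2%, a difference within the spread (exact permutation p = 0.853).

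In bone marrow the interval's junctions read for the frame were open more often than those of the rest of the VH region. The rest gave 42.3% ± 5.09, and the interval was higher in 6 of 6 replicates by 7.66 points on average (exact sign-flip p = 0.0313, the smallest possible; adjusted p = 0.141 over 18 tests, so it does not pass the correction). In treated CTCFdegron cells the interval and the rest gave 25.8 and 26.1% (exact sign-flip p = 0.813). There the frame was read in 72.9 to 80.5% of the interval's junctions and in 84.8 to 88.7% of those in the rest. By segment, the open share in bone marrow ranged from 15.8% at the unnamed 116038148 (101 junctions read) to 66.9% at Ighv1-53 (287 junctions) over the 29 segments with at least 100 junctions read. It was 59.2% at Ighv6-3, 59.0% at Ighv1-54, 36.7% at Ighv1-2, 31.2% at Ighv1-47, 31.1% at Ighv10-3 and 20.3% at the unnamed 116433049. In treated cells Ighv1-5 gave 25.4% and 116433049 gave 24.5%.

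**Figure D4:**
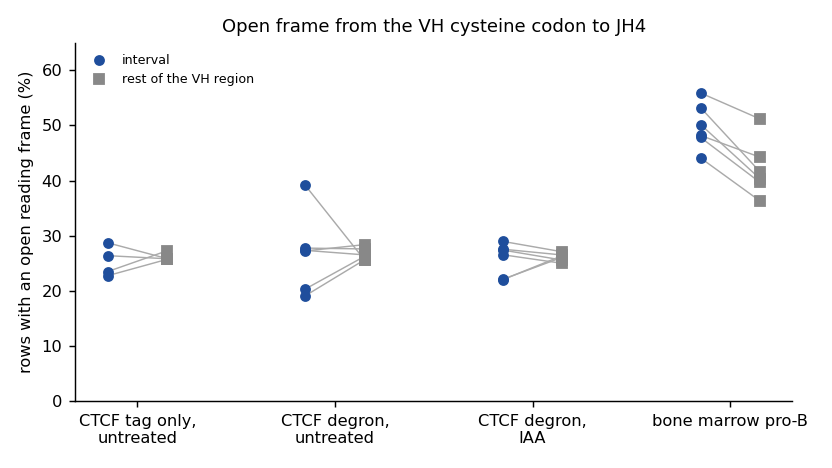
Share of the junctions read for the frame that were open (percent) in the interval (circles) and the rest of the VH region (squares). Lines join the values of a replicate. Bone marrow circles lie between 44.1 and 55.9% and those of IAA-treated CTCFdegron cells between 22.1 and 29.0%.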

How the data were processed

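Each sample was a library of JH4-bait junction reads from v-Abl lines or bone marrow pro-B cells. Of 110 samples, 98 had a complete list of junctions. The other 12, in 4 groups, held off-target lists and were not used here. The authors deposited lists with 1 line for each junction read, giving its position, strand, bait end and sequence, with no normalized values. Bowtie2 and mm9 are named in the submitters' processing notes, and versions and filters are not given in the sources used here. The deposited coordinates follow the labels' hybrid mm9 genome, which was not used here, so segments were named by matching read sequence to mm9 with blastn 2.17.0.

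Groups followed the sample titles, also for 4 libraries titled IAA whose treatment label does not name it, of which 3 belong to CTCFdegron replicates 4 and 5. A replicate's share is the mean over its libraries, called a and b in the titles where it has both. Junctions of a and b libraries at the same segment lay 3 bases to either side of those in bone marrow, and this shift was removed for segments. A segment is a position with at least 10 reads within 100 bp from at least 3 libraries, with at least 50.0% of the reads within 100 bp lying within 15 bp of it.

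Shares were compared with two-sided exact permutation tests, and the effects of IAA between lines by permuting the differences of same-numbered replicates between lines. Reads per segment were compared with limma 3.58.1 (voom, lmFit, eBayes) in R 4.3.3. The model used library totals as scale, a pseudocount of 0.5, segments with a mean of at least 10 reads per replicate, and Benjamini-Hochberg adjusted p under 0.05 over all D and VH segments. The limma step was tested on simulated data. Python 3.11.15 with pandas 2.3.3, numpy 2.4.6 and matplotlib 3.10.9 did the rest.

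The interval, its omitted positions and the lists were chosen with earlier results of these data known. The segments named are the 6 most used in IAA-treated CTCFdegron cells, the 6 most used in bone marrow and the 3 most used over untreated CTCFdegron and control lines. To these were added, per comparison, up to 4 with the largest change past the threshold and no overlap of replicates, and the segments nearest to and farthest from the D segments. Ighv10-3 and any other segment outside this rule were named after their values were seen.

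Alternatives covered the scaling, the read minimum, repeated junctions counted once, the omitted positions, the denominator, the orientation, b libraries only, the window, pooling, a replicate block and each replicate left out. Leaving out marked duplicates, leaving out replicate 1 of both CTCFdegron groups, the comparison of the CTCF-tag line with the parental line and the measures of the junctions themselves were added after the data were seen.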

Additional observations from a re-analysis of the deposited data

Results flagged for a closer look

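In 86 sets of values, each from a group of 4 or 6 replicates, the highest or lowest replicate was checked for its distance from the others. Of these, 9 stood apart. The limits used would flag about 1 in 20 sets of normally distributed values. Several sets hold few reads and replicates without reads, where that rate does not hold. Both values of the share of VH reads belong to replicate 1. IAA-treated CTCFdegron replicate 1 had 2.73% of its VH reads in the interval, the lowest of 6, and IAA-treated CTCF-tag replicate 1 had 1.999%, the lowest of 4.

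The other 7 were high values at single segments in untreated groups, given as shares of all reads, and several rest on few reads. CTCFdegron replicate 2 was highest at Ighv6-3 with 0.0102%, at Ighv1-37 with 0.00256% and at Ighv1-39 with 0.0205%. CTCFdegron replicate 5 was highest at 116038148 with 0.00365%. Parental replicate 3 was highest at Ighv1-39 with 0.00130% and at 116652452 with 0.00173%, and parental replicate 4 at Ighv1-26 with 0.00178%.

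The change with IAA differed between lines. It was larger in CTCFdegron than in parental cells by 1.49 percentage points of all reads, than in Ostir1 cells by 1.50 points and than in CTCF-tag cells by 1.48 points (exact permutation p = 0.00476 each).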

How the results depend on the processing

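Across 20 comparisons of shares, 286 of 318 alternatives kept direction and side of the threshold, 14 were weaker, 4 stronger and 14 reversed. For named segments 382 of 398 did, with 11 weaker and 5 reversed. Of 87 alternatives on counts of called segments, 81 stayed within 1.5 times. The cause was not tested, except that a replicate block or a left-out replicate leaves fewer samples.

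Same-numbered replicates of CTCFdegron with and without IAA did not deviate together in every pair (correlations over segments 0.637, 0.379, 0.110, -0.0330, -0.0665 and -0.108), and 2 of 6 correlated best with their own number, so the numbers were not taken as pairs, except to form the differences with IAA that were compared between lines. With the replicate block (exact sign-flip test) the CTCFdegron rise was 1.50 points (p = 0.0313). With 4 pairs, where p cannot go below 0.125, the block gave 1.54 points for IAA-treated CTCFdegron, 0.159 for untreated CTCFdegron and 5.69 for bone marrow, each against untreated parental cells, and in shares of VH reads 4.63, 17.0 and, for IGCR1-deleted against IAA-treated CTCFdegron cells, -5.96 points (exact sign-flip p = 0.125 each). Over 3 pairs, IGCR1-deleted cells differed from Rad21degron cells by -0.0409 (p = 0.250, exact sign-flip). In limma the block changed no count of called segments by over 1.5 times.

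With b libraries only, IAA changed the parental share by 0.0233 points (exact permutation p = 0.0286) and the Ostir1 share by -0.00117. With the 5 positions included, the Ostir1 change was -0.00149, the change in CTCFdegron VH share 6.10 and the excess of untreated CTCF-tag over parental cells 0.288 points (exact permutation p = 0.0286). With repeated junctions counted once, the CTCF-tag change was -0.0336 and the CTCFdegron VH share change 2.06 points.

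With 1 replicate left out, the IAA change ran from -0.00935 to 0.00932 points in Ostir1, from -0.0371 to 0.0694 in CTCF-tag and from 0.0146 to 0.0975 in IGCR1-deleted cells (without IAA replicate 2, exact permutation p = 0.0286). It ran from -1.05 to 0.597 points for the CTCFdegron VH share. The difference of IGCR1-deleted from Rad21degron cells ran from -0.0409 to -0.0310, and that of CTCF-tag from parental cells from 0.124 to 0.217.

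A minimum of 3 reads called 22 segments of the interval and no minimum 40, in place of 7, for IAA-treated CTCFdegron against either untreated group, all higher and including those 7. For untreated CTCFdegron against parental cells these counts were 7 and 15 in place of 1. The shares called over all segments at these lower minimums are not given here. At the minimum used above, 80.3% of all segments tested were called higher in IAA-treated than in untreated CTCFdegron cells. Against untreated parental cells, 78.2% were called higher in IAA-treated and 37.2% in untreated CTCFdegron cells. Segments could enter through 1 group alone, so nothing is read from these counts about the interval. Median-of-ratios scaling turned bone marrow against treated CTCFdegron cells to -0.17 at Ighv1-5, -0.41 at Ighv1-12, -0.12 at Ighv1-39 and -0.86 at Ighv1-47, and the CTCFdegron change at Ighv1-47 to -0.61. Depth limits the Rad21degron and IGCR1-deleted groups, where 7 reads or fewer in a treated or deleted group decide the share.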

Other observations

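A peak at 116086149 was the 1 of the 52 that had no match at the Igh locus in mm9. Its 25 reads came from the CTCF-tag line alone, 10 from 1 untreated and 15 from 1 IAA-treated replicate, which is 0.794% and 1.04% of the interval's reads in those groups.

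Libraries a and b differed in the bait bases before the junction, with 14 bases in a libraries, 20 in b libraries and 17 in bone marrow. In untreated parental cells the interval took 0.0635% of reads in a libraries and 0.0344% in b libraries, with a higher in 4 of 4 replicates, whereas with IAA the means were 0.0604 and 0.0577% and a was higher in 2 of 4.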
